A study of Mus musculus with 43 samples.

Results

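The interferon response of innate-like T cells was set against that of conventional T cells in 20 of the 43 arrays of the series. NKT cells and gamma-delta T cells formed the innate-like side, with 10 arrays whose titles start with NKT or Tgd, and CD4+ and CD8+ T cells the conventional side, with 10 arrays whose titles start with T4 or T8. The series profiled immune cells of male C57BL/6 mice aged 6 weeks on whole-transcript Affymetrix arrays, and all 4 cell types carry a spleen title. Each type had 2 arrays from mice taken 2 h after 10000 U of interferon alpha given under the skin and 3 baseline arrays labelled SPF, for which the labels name no injection. The measured quantity was the interferon effect, the mean log2 intensity of the interferon arrays of a cell type minus that of its baseline arrays. The comparison was the mean effect in NKT and gamma-delta T cells minus the mean effect in CD4+ and CD8+ T cells, called the difference below. Median intensities of the 20 arrays lay between 105 and 125, no probe set was screened for detection, and precision is limited by how few arrays each group has.

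Type I interferons bind a receptor made of IFNAR1 and IFNAR2, and the kinases JAK1 and TYK2 then pass the signal to transcription factors. These factors bind interferon-stimulated response elements in promoters and switch on antiviral genes. NKT cells carry an alphabeta T cell receptor that mostly reads lipids presented by CD1d, and gamma-delta T cells carry the alternative receptor. Both are called innate-like because they hold preformed effector programmes and respond before the clonal expansion that conventional CD4+ and CD8+ T cells need.

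The labels set limits on the groups. NKT cells were labelled NK1.1+ with the beta chain of the T cell receptor on the interferon arrays and baseline array 3, but by NK1.1 alone on baseline arrays 1 and 2. The gamma-delta T cells of baseline arrays 1 and 2 were labelled as lacking the beta chain, and the other gamma-delta arrays by the gamma-delta receptor. The source of CD8+ baseline arrays 1 and 2 reads blood although their titles name spleen. Tissue preparation was worded one way for baseline arrays 1 and 2 of every type and another way for baseline array 3 and for the interferon arrays of gamma-delta and CD8+ T cells. The interferon arrays of NKT and CD4+ T cells were worded in a way not found on any baseline, so each side of the comparison held 1 type of each wording. The labels do not say whether arrays came from separate animals, and p-values therefore measure only the spread between arrays. That spread was pooled over the 18 groups of all 43 arrays, so p-values and standard errors do not give the spread of a single type.

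Defining markers bore out the labels of 3 types and could be read only in part for the fourth. Cd4 lay between 11.28 and 11.93 on the CD4+ arrays, Cd8a between 11.47 and 11.89 on the CD8+ arrays, and Zbtb16, the transcription factor of NKT cells, between 9.76 and 11.07 on the NKT arrays. Cd3e was at least 12.18 on all 20 arrays. Of 13 gamma-delta markers only Sox13 was measured, at 7.83 to 8.48 on the gamma-delta arrays and at most 7.61 on the other arrays, and Cd4 and Cd8a were low there.

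Markers of other cells moved among the innate-like arrays and also among some conventional arrays. The median log2 level of 19 macrophage markers was 10.07 and 8.80 on the NKT interferon arrays and 9.28, 7.83 and 8.76 on the NKT baseline arrays. On the gamma-delta arrays it lay between 6.5 and 7.30, and on the CD4+ and CD8+ arrays between 5.97 and 6.65. All NKT arrays thus lay above the other 15 arrays of the comparison in macrophage markers, and NKT interferon array 1 was the highest. The macrophage arrays of the series, which are peritoneal, lay between 10.58 and 11.44, and spleen macrophages were not analysed here. Spic, a transcription factor of red pulp macrophages in the spleen, was at 9.22 and 7.64 on the NKT interferon arrays and at 7.91, 6.32 and 8.22 on the NKT baseline arrays, against 5.26 to 6.02 on the gamma-delta arrays. Of the 19 markers, 18 had a difference above 0, with a median of 0.46, and 0 were called in the difference. In the NKT effect 3 of them were called higher (2.89% of all genes), with a median of 0.55. NKT minus conventional effects called 2 higher (0.446% of all genes), with a median of 0.93, and NKT minus gamma-delta effects 1 (0.0557%). B cell markers, 11 measured, had medians of 9.12 and 7.70 on the gamma-delta interferon arrays and of 8.26, 7.37 and 9.56 on the gamma-delta baseline arrays, against 6.01 to 6.98 on the other 15 arrays of the comparison. NK cell markers, 11 measured, were at 7.99 and 8.21 on the gamma-delta interferon arrays and at 9.82, 8.20 and 7.71 on the gamma-delta baseline arrays. Plasmacytoid dendritic cell markers, 7 measured, separated by treatment in gamma-delta T cells, with medians of 9.24 and 8.62 on the interferon arrays and 7.69, 8.01 and 8.16 on the baseline arrays. The 1 member called in the gamma-delta effect was Bst2, which is also an interferon-induced antiviral gene, and 0 were called in the difference. The medians of 13 dendritic cell markers were 6.64, 7.16 and 6.40 on the CD8+ baseline arrays and 6.39 and 7.01 on the CD4+ interferon arrays. Cd74, of that list, was at 10.09 on CD8+ baseline array 2, against 7.89 and 7.26 on the others. On CD4+ interferon array 2 it was at 8.89, against 7.02. Within their groups, these arrays also held the highest values of Cxcl9 and Ifi205, given below. The lowest linear intensity over the 20 arrays, before log2 was taken, was 4.86. No marker was therefore at 0, and a value above 0 does not show that a marker was present. In sorted bulk cells, more cells of a type and more RNA per cell cannot be told apart. The part of other cells in the results below was not tested, except where a value is given.

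**Figure D1:**
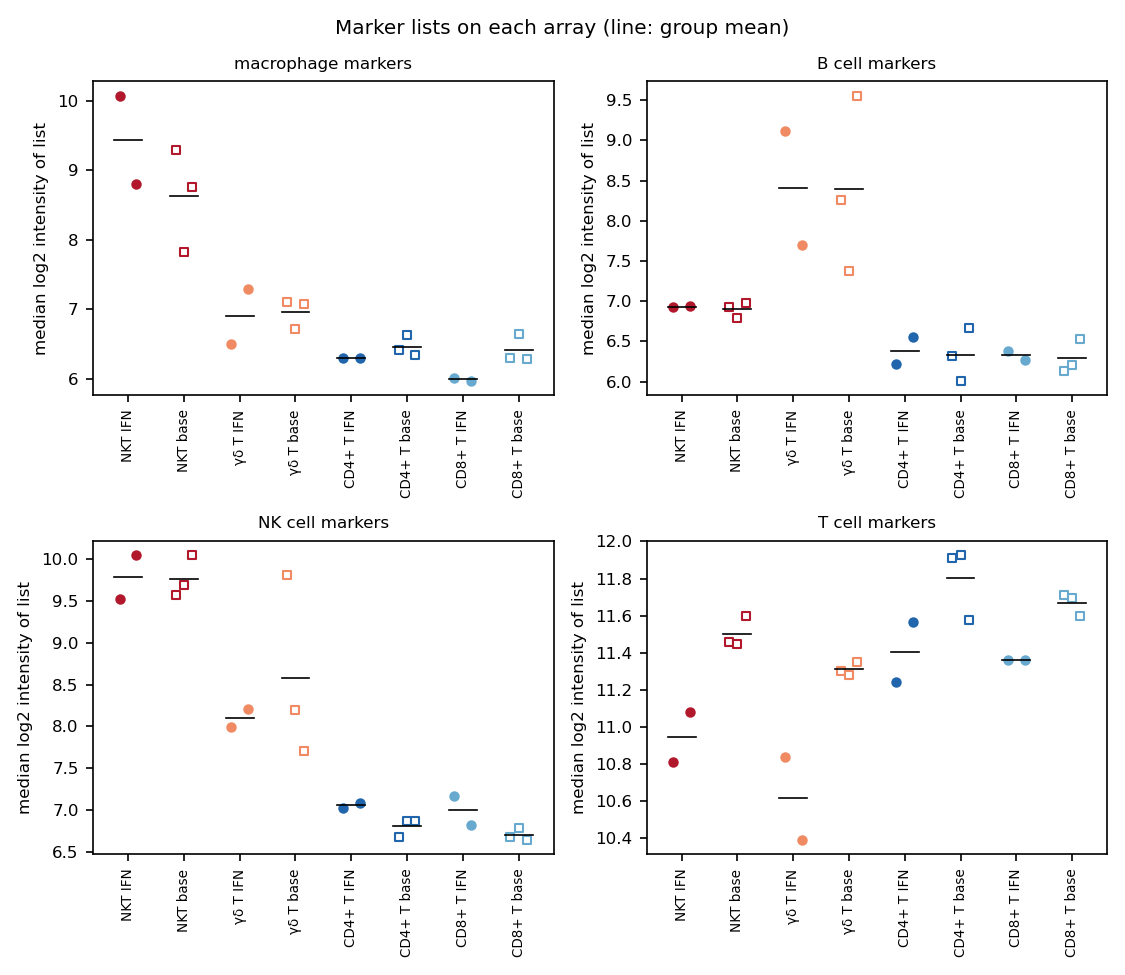
Median log2 intensity of 4 marker lists on each of the 20 arrays. Filled circles are interferon arrays, open squares are baseline arrays and lines are group means. The NKT arrays lie highest for macrophage markers and the gamma-delta arrays highest for B cell markers.

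All 4 cell types answered interferon, and the innate-like types had more responding genes. Calls required a limma p, adjusted by Benjamini-Hochberg over 19752 genes, below 0.05 together with a change of at least 1 on the log2 scale, which is 2-fold. Raised genes numbered 571 in NKT cells (2.89% of all genes), 302 in gamma-delta T cells (1.53%), 178 in CD4+ T cells (0.901%) and 198 in CD8+ T cells (1%). Lowered genes numbered 75 in NKT cells (0.38%), 135 in gamma-delta T cells (0.683%), 13 in CD4+ T cells (0.0658%) and 63 in CD8+ T cells (0.319%). In both directions together, 3.27% of genes were called in NKT, 2.21% in gamma-delta, 0.967% in CD4+ and 1.32% in CD8+ T cells. A common set of 142 genes (0.719%) was raised in all 4 types. This set was 24.9% of the genes raised in NKT cells, 47.0% of those raised in gamma-delta T cells, 79.8% of those raised in CD4+ T cells and 71.7% of those raised in CD8+ T cells. Among the 142 genes the median effect was 2.40 in NKT cells, 2.24 in gamma-delta T cells, 1.82 in CD4+ T cells and 1.90 in CD8+ T cells. The difference was above 0 for 111 of them with a median of 0.37, while its median over all genes was -0.06. A further 81 of the 19752 genes were raised in NKT and gamma-delta T cells and in neither conventional type. Their median effects were 1.46 in NKT, 1.29 in gamma-delta, 0.39 in CD4+ and 0.67 in CD8+ T cells. In the opposite pattern, 3 of the 19752 genes were raised in CD4+ and CD8+ T cells and in neither innate-like type. Median effects of these 3 were 0.99 in NKT, 0.74 in gamma-delta and 1.2 in both conventional types. Not being raised here means missing the threshold, not the absence of an effect.

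The test of the difference itself called 27 genes (0.137%), of which 25 were higher in innate-like cells (0.127%) and 2 were lower (0.0101%), and 2755 genes had an unadjusted p below 0.05. Of the 27 genes, 5 belonged to the set raised in all 4 types and 7 to the set raised in both innate-like types and neither conventional type. None of the 3 genes raised in conventional cells alone was called. In each of the 27 genes both innate-like effects lay beyond both conventional effects. The genes were chosen on the means of these same effects, which favours that order, so it is no separate result. The NKT effect was the larger of the innate-like pair in 25 of the 27 genes. Comparisons of 1 innate-like type with the conventional mean do not balance the preparation wordings. Against that mean, NKT cells differed in 88 genes upward (0.446%) and 12 downward (0.0608%), 0.506% in all. Gamma-delta T cells differed in 0 genes (0%) by limma, although 1542 genes had an unadjusted p below 0.05, and the smallest adjusted p was 0.154. The 27 genes had the sign of the difference in gamma-delta T cells too, but this comparison shares arrays with the choice of the genes. CD8+ and CD4+ T cells differed from each other in 0 genes (0%) by limma, with 493 genes at an unadjusted p below 0.05.

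**Figure D2:**
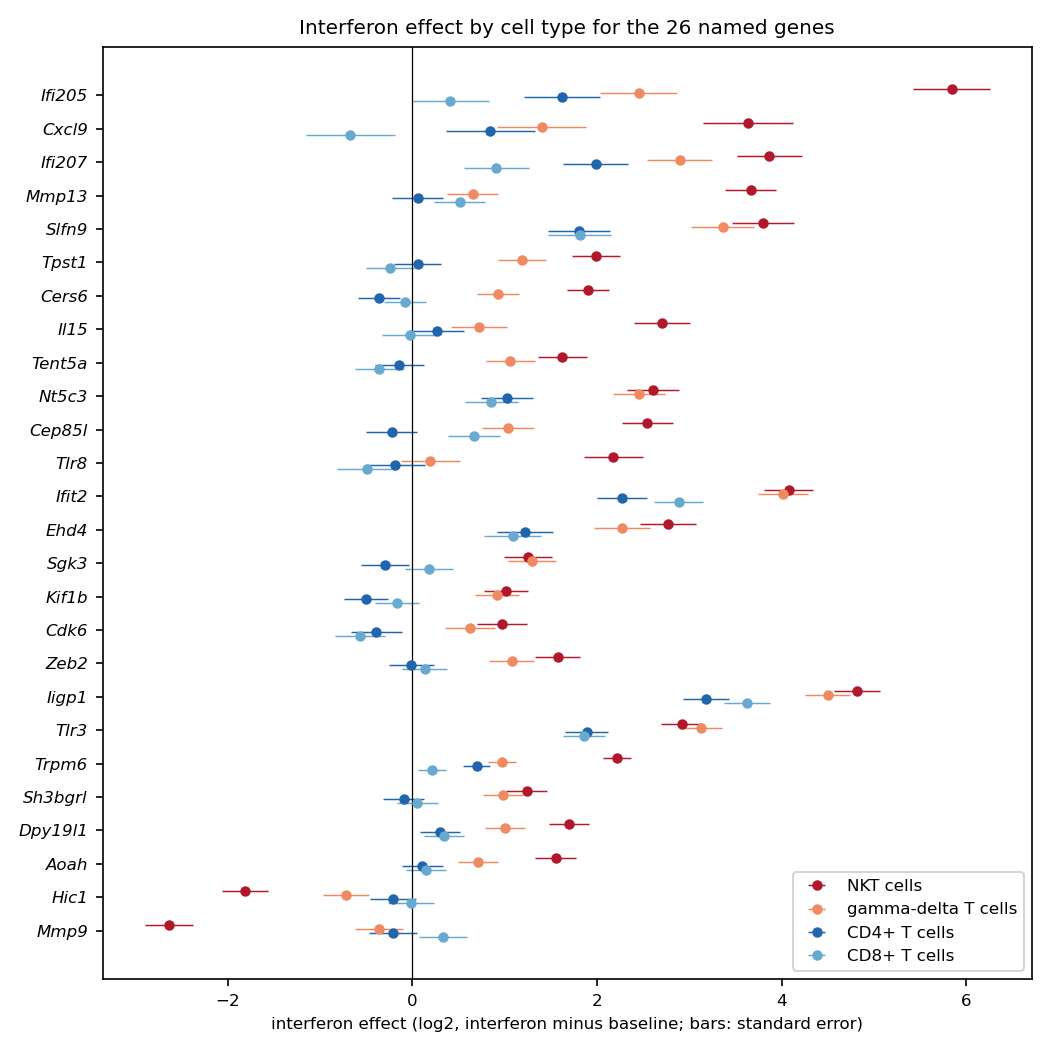
Interferon effect (log2, interferon minus baseline) of the 26 named genes in each cell type, with bars for the standard error of the fit. Points of NKT cells lie farthest to the right for most genes, those of gamma-delta T cells between them and the conventional types, and Hic1 and Mmp9 lie to the left.

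Promoter sequences of 4 of the called genes are shown because they hold a complete response element before the start of transcription. The element was searched as GAAANNGAAA on both strands, in windows from 250 bases before to 50 bases after each start in RefSeq, build GRCm38.p6. Windows were found for 23 of the 27 called genes, and 5 of them (21.7%) held the motif, against 3.88% of 15483 measured genes with a window, 3.99% of all 27025 genes with a window and 36.8% of 114 genes raised in all 4 types. A gene was counted once if any of its windows held the motif. Ifi205 held the element at 134 bases before the start, Ifi207 at 41, Slfn9 at 45 and Mmp13 at 146. Ifi205 held another after the start, and the only match of Aoah was also after the start. Each line gives the 250 bases before the start, 5′ to 3′ on the strand of the gene, with the element in capitals.
Ifi205, chr1:174031756-174032005, minus strand: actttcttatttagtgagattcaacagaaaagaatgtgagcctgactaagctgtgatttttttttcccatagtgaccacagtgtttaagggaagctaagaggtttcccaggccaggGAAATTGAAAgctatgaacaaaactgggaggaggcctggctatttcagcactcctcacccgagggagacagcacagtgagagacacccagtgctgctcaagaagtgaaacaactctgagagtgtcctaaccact
Ifi207, chr1:173741810-173742059, minus strand: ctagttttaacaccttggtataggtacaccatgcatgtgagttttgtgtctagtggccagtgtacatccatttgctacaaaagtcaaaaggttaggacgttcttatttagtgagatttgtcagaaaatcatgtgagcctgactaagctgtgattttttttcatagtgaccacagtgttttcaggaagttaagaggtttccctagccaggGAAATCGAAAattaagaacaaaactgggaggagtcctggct
Slfn9, chr11:82991831-82992080, minus strand: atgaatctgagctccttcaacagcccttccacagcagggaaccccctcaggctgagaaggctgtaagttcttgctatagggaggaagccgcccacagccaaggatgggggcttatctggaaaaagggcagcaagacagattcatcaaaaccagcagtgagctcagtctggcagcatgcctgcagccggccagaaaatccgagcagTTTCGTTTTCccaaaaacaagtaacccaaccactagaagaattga
Mmp13, chr9:7272264-7272513, plus strand: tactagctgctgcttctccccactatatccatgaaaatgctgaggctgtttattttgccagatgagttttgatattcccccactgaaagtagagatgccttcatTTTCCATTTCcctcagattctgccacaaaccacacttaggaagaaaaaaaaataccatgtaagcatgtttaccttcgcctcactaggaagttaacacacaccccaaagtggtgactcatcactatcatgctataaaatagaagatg
A match describes letters only. No binding was measured here.

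The PYHIN genes, whose proteins bind nucleic acids inside the cell, held the largest difference. Ifi205 was at 11.80 and 9.98 on the NKT interferon arrays, against 4.67, 4.68 and 5.79 on the NKT baseline arrays. In gamma-delta T cells it was at 6.81 and 7.25 after interferon, against 3.96, 4.84 and 4.94 at baseline. In CD4+ T cells it was at 5.79 and 6.82 after interferon, against 4.88, 4.69 and 4.48 at baseline, and in CD8+ T cells at 5.51 and 5.42, against 4.72, 5.84 and 4.59. Interferon and baseline arrays did not overlap in the innate-like types or in CD4+ T cells, and they overlapped in CD8+ T cells. The effects were 5.84 in NKT cells, 2.45 in gamma-delta T cells, 1.62 in CD4+ T cells and 0.41 in CD8+ T cells (SE 0.41 each), and the difference was 3.13 (SE 0.41, adjusted p = 0.000108). Baseline levels of both sides were close, with innate-like minus conventional at -0.06, so the sides parted after interferon, at 3.07.

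Ifi207, a neighbour of Ifi205 in the same family, gave a difference of 1.93 (SE 0.35, adjusted p = 0.00803). Its effects were 3.87 in NKT cells, 2.90 in gamma-delta T cells, 1.99 in CD4+ T cells and 0.91 in CD8+ T cells (SE 0.35 each), the CD8+ effect not being called. Its innate-like level was already 1.03 higher at baseline. Both genes are abundant in myeloid cells of the series, where Ifi205 was at 12.36 and Ifi207 at 12.92 on the peritoneal macrophage interferon array. Without NKT interferon array 1, which had the most macrophage signal, Ifi205 kept its call at 2.67 (adjusted p = 0.000986) and Ifi207 lost it at 1.59 (adjusted p = 0.0801). Of 7 PYHIN genes measured, 6 had a difference above 0 with a median of 0.86, and 2 were called, against 0.137% of all genes. Among the others, Ifi209 was at 1.42 (adjusted p = 0.092) and Aim2, a DNA sensor of the inflammasome, at 0.66 (adjusted p = 0.36). The members are closely related in sequence, so probe signal may be shared between them.

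The 5 called genes of the common set were Ifit2, Iigp1, Slfn9, Tlr3 and Ehd4. These rose in all 4 types, and rose more in innate-like cells. Ifit2, an RNA-binding inhibitor of viral replication, was at 11.40 and 11.36 on the NKT interferon arrays, against 6.49, 7.58 and 7.83 at NKT baseline. In gamma-delta T cells the levels were 11.04 and 10.92 after interferon, against 6.75, 7.33 and 6.81 at baseline. In CD4+ T cells the levels were 10.39 and 10.92 after interferon, against 8.32, 8.51 and 8.33 at baseline, and CD8+ T cells had 10.52 and 11.05, against 7.98, 7.66 and 8.07. No interferon array overlapped a baseline array in any type, and the levels after interferon lay close together in the 4 types. The sides differed mainly at baseline, where innate-like minus conventional was -1.01, against 0.46 after interferon. The difference of the effects was 1.47 (SE 0.27, adjusted p = 0.00803).

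Iigp1, a GTPase that attacks the vacuoles of intracellular parasites, had the same shape. It was at 10.67 and 10.84 on the NKT interferon arrays and at 5.56, 5.97 and 6.27 on the NKT baseline arrays. The gamma-delta arrays held 10.49 and 10.66, against 5.64, 6.63 and 5.95. The CD4+ arrays held 9.96 and 10.34, against 7.15, 7.08 and 6.68, and CD8+ T cells 9.76 and 10.58, against 6.51, 6.53 and 6.59. Innate-like minus conventional was -0.75 at baseline and 0.50 after interferon. The difference of the effects was 1.25 (SE 0.25, adjusted p = 0.0155). All 8 measured interferon-inducible GTPases rose in each of the 4 types, as 0.719% of all genes did. All had a difference above 0, with a median of 0.56, and Iigp1 alone was called in it, against 0.137% of all genes. Gbp9, a guanylate-binding protein, came next at 1.09 (adjusted p = 0.17).

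Slfn9, a member of the schlafen family that regulates lymphocyte growth, parted after interferon instead. It was at 10.75 and 11.29 on the NKT interferon arrays, against 6.40, 7.51 and 7.75 at baseline. Levels in gamma-delta T cells were 10.38 and 10.32, against 6.68, 7.62 and 6.66. CD4+ T cells had 8.65 and 9.26, against 7.48, 7.35 and 6.61, and CD8+ T cells 8.99 and 9.85, against 7.66, 7.58 and 7.58. All innate-like interferon arrays lay above all conventional interferon arrays, while the baseline arrays of both sides overlapped. The effects of 3.80 in NKT and 3.36 in gamma-delta T cells stood against 1.81 in both conventional types, a difference of 1.77 (SE 0.34, adjusted p = 0.0135). Of 7 schlafen genes, 6 had a difference above 0 with a median of 0.66. Slfn5 was at 1.20 (adjusted p = 0.11) and the close relative Slfn8 at 0.66 (adjusted p = 0.37).

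Tlr3, the endosomal receptor for double-stranded RNA, was at 8.94 and 8.61 on the NKT interferon arrays and at 9.02 and 8.93 on the gamma-delta interferon arrays. In CD4+ T cells the levels were 7.34 and 8.02, and CD8+ T cells 7.75 and 7.88, after interferon. All 12 baseline arrays lay between 5.40 and 6.22. The levels thus started together and ended apart, and the effects were 2.92 in NKT cells, 3.13 in gamma-delta T cells, 1.89 in CD4+ T cells and 1.86 in CD8+ T cells (SE 0.23 each). The difference was 1.15 (SE 0.23, adjusted p = 0.0162). Tlr3 was the only called gene besides Sgk3 whose gamma-delta effect exceeded the NKT effect, and the only one of the 27 not called when NKT cells were set against the conventional types on their own (adjusted p = 0.085). Without NKT interferon array 1 its difference was 1.07 (adjusted p = 0.0958). Ehd4, a protein of endosomal recycling, had effects of 2.77 in NKT and 2.27 in gamma-delta T cells, against 1.23 in CD4+ and 1.09 in CD8+ T cells. Its difference of 1.36 (SE 0.30) lay just under the threshold, at adjusted p = 0.0494, and kept its call in 13 of 33 alternative settings.

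**Figure D3:**
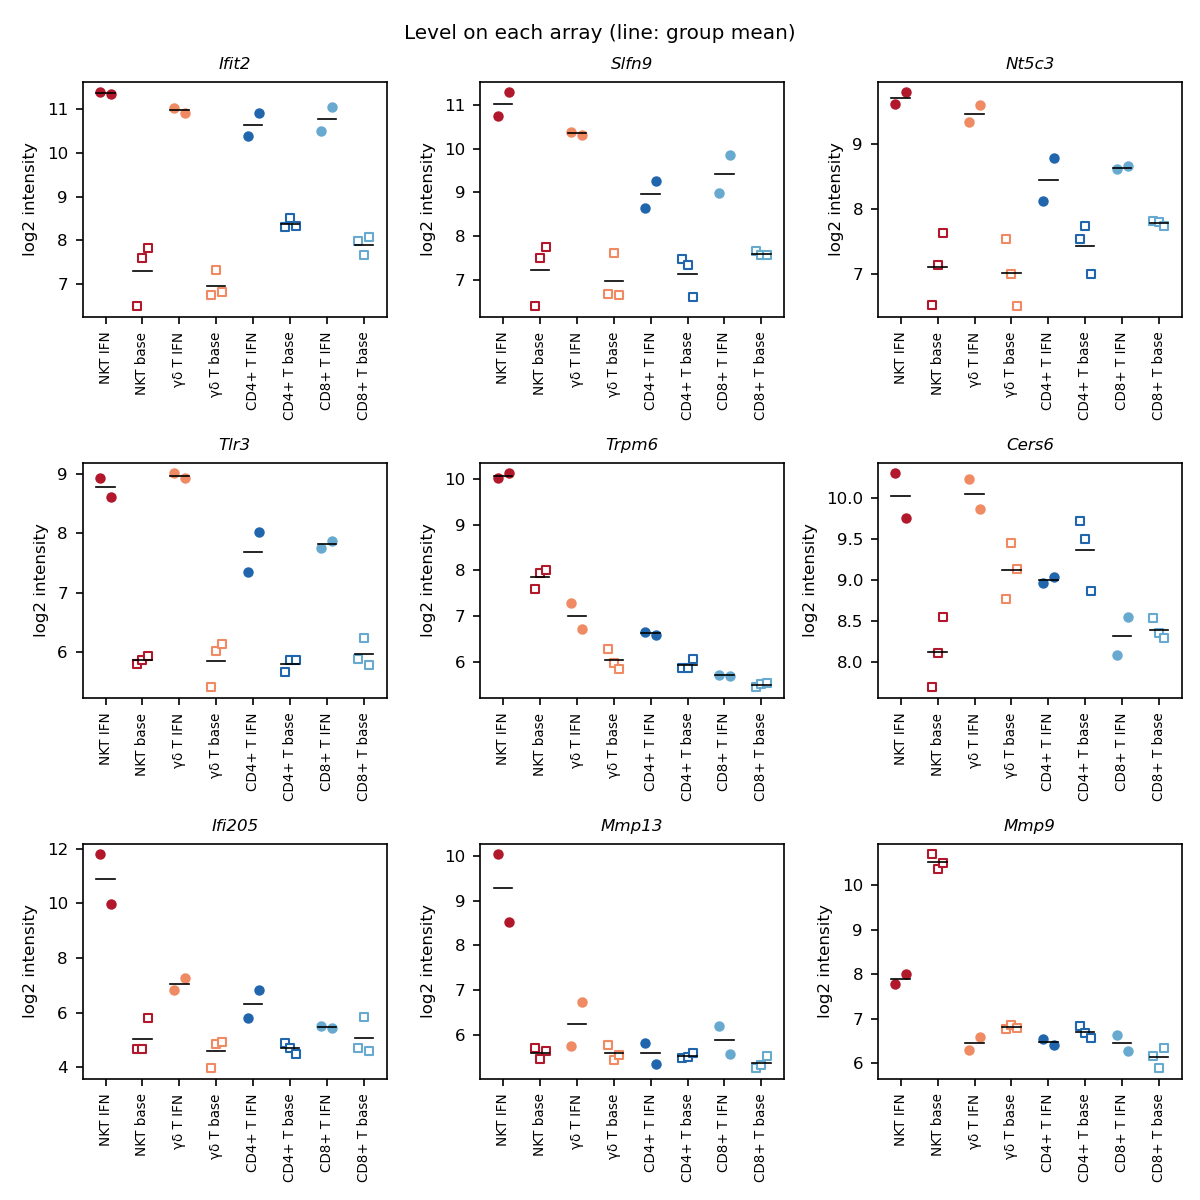
Log2 intensity of 9 called genes on each of the 20 arrays, with filled circles for interferon arrays, open squares for baseline arrays and lines for group means. Ifit2 starts lower and ends level in the innate-like types, Slfn9, Nt5c3 and Tlr3 end higher there, and Ifi205, Mmp13, Trpm6 and Mmp9 change most in NKT cells.

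The 7 called genes that were raised in both innate-like types and in neither conventional type were Tpst1, Tent5a, Nt5c3, Cep85l, Sgk3, Zeb2 and Dpy19l1. Nt5c3, a nucleotidase that breaks down pyrimidine nucleotides, was at 9.62 and 9.80 on the NKT interferon arrays, against 6.53, 7.14 and 7.64 at baseline. Gamma-delta T cells had 9.35 and 9.60, against 7.54, 7.01 and 6.5. The CD4+ arrays held 8.12 and 8.78, against 7.54, 7.74 and 7.01, and CD8+ T cells 8.62 and 8.66, against 7.81, 7.79 and 7.74. Every interferon array exceeded every baseline array of its own type, and the innate-like shifts were the wider ones. The effects were 2.61 in NKT cells, 2.45 in gamma-delta T cells, 1.03 in CD4+ T cells and 0.86 in CD8+ T cells (SE 0.28 each), and the difference was 1.59 (SE 0.28, adjusted p = 0.00723). The conventional effects missed the threshold at adjusted p = 0.059 and 0.12.

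Tpst1, which adds sulfate to tyrosines of secreted proteins, was at 9.72 and 8.86 on the NKT interferon arrays and at 9.15 and 7.81 on the gamma-delta interferon arrays. The 10 conventional arrays stayed between 6.73 and 7.22 in both conditions. Its effects were 1.99 in NKT and 1.18 in gamma-delta T cells, against 0.06 in CD4+ and -0.24 in CD8+ T cells, and the difference was 1.68 (SE 0.26, adjusted p = 0.000926). Tent5a, a terminal nucleotidyltransferase, gave 1.59 (SE 0.27, adjusted p = 0.00352), with effects of 1.63 in NKT and 1.06 in gamma-delta T cells and of -0.14 in CD4+ and -0.36 in CD8+ T cells. CD8+ T cells held the highest baseline of Tent5a, at 9.95, 9.76 and 9.95. Cep85l, which encodes a centrosomal protein, gave 1.57 (SE 0.28, adjusted p = 0.00706). Its effects were 2.55 in NKT, 1.04 in gamma-delta, -0.22 in CD4+ and 0.67 in CD8+ T cells. The CD8+ effect was not called (adjusted p = 0.29). Even so, the CD8+ interferon arrays, at 7.25 and 7.33, lay above the CD8+ baseline arrays, at 6.75, 6.64 and 6.48. Zeb2, a transcription factor of terminal effector cells, gave 1.26 (SE 0.24, adjusted p = 0.0139), with effects of 1.58 in NKT and 1.08 in gamma-delta T cells and of -0.01 in CD4+ and 0.14 in CD8+ T cells. Peritoneal macrophage and dendritic cell arrays of the series also held Zeb2 at high levels, with 10.94 on the macrophage interferon array, and its difference without NKT interferon array 1 was 1.01 (adjusted p = 0.0958).

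Sgk3, a kinase downstream of phosphoinositide 3-kinase, differed in another way. Its conventional arrays lay between 8.38 and 9.16 in both conditions. NKT cells moved up to 8.62 and 7.75 after interferon, against 6.68, 6.84 and 7.26 at baseline, and gamma-delta T cells to 9.05 and 8.12, against 7.12, 7.54 and 7.21. The innate-like level was -1.63 relative to conventional cells at baseline and -0.29 after interferon, so interferon narrowed a gap, and Sgk3 was the only one of the 25 higher genes without a higher innate-like level after interferon. The difference of the effects was 1.33 (SE 0.26, adjusted p = 0.0146), and 1.11 (adjusted p = 0.0958) without NKT interferon array 1. Of the 25 higher genes, 15 had the lower innate-like level at baseline and 24 the higher innate-like level after interferon, with 14 doing both. NKT baseline array 1 was the lowest NKT baseline array in 16 of the 27 called genes, and in 30.7% of all genes. Without it, 14 had the lower innate-like level at baseline and 13 did both, and the baseline value of Ifit2 was -0.81. Dpy19l1, a glycosyltransferase of the endoplasmic reticulum, was the weakest of these 7 genes at 1.03 (SE 0.22, adjusted p = 0.0324), with effects of 1.70 in NKT, 1.01 in gamma-delta, 0.30 in CD4+ and 0.35 in CD8+ T cells.

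Secreted factors and an innate sensor were called through NKT cells. Cxcl9, a chemokine that draws CXCR3-bearing lymphocytes, was at 12.07 and 10.92 on the NKT interferon arrays, against 7.42, 6.97 and 9.19 at baseline. In gamma-delta T cells the levels were 7.76 and 7.67, against 5.86, 6.04 and 7.03. CD4+ T cells had 5.96 and 7.59, against 6.04, 5.97 and 5.78, and CD8+ T cells 5.91 and 6.36, against 6.49, 7.61 and 6.33. Interferon and baseline arrays were separate in the innate-like types and overlapped in the conventional types. The effects were 3.64 in NKT cells (adjusted p = 1.5e-06) and 1.40 in gamma-delta T cells (adjusted p = 0.086), against 0.84 in CD4+ and -0.67 in CD8+ T cells (SE 0.48 each). The difference of 2.43 (SE 0.48, adjusted p = 0.0162) was 2.15 (adjusted p = 0.0958) without NKT interferon array 1. Dendritic cells held Cxcl9 at 13.15 on average after interferon and 11.64 at baseline. The medians of 13 dendritic cell markers were 9.07 and 8.58 on the NKT interferon arrays and 7.99, 8.13 and 8.26 on the NKT baseline arrays. Of 16 chemokine genes measured, Cxcl9 was the only one called in the difference, against 0.137% of all genes. Cxcl10, a related ligand of the same receptor, rose by 4.60 in NKT, 4.63 in gamma-delta, 4.18 in CD4+ and 4.37 in CD8+ T cells, a difference of 0.34 (adjusted p = 0.63).

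Il15, the cytokine that maintains NK cells, NKT cells and memory CD8+ T cells, was at 9.49 and 8.19 on the NKT interferon arrays, against 6.20, 5.67 and 6.54 at baseline. The gamma-delta arrays held 7.79 and 7.58, against 7.12, 6.66 and 7.10. The 10 conventional arrays lay between 4.97 and 6.16. The NKT and gamma-delta arrays separated by treatment, and only NKT cells passed the test, with effects of 2.70 in NKT and 0.72 in gamma-delta T cells (SE 0.30). The difference was 1.60 (SE 0.30, adjusted p = 0.0127), and 1.27 (adjusted p = 0.0958) without NKT interferon array 1. Il15 was the only gene called in the difference among 23 cytokine genes, against 0.137% of all genes. Ifng, the gene of interferon gamma, rose in all 4 types, by 1.58 in NKT, 1.68 in gamma-delta, 1.08 in CD4+ and 1.34 in CD8+ T cells, a difference of 0.42 (adjusted p = 0.4).

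Tlr8, an endosomal relative of the RNA sensor Tlr7, was at 9.12 and 7.55 on the NKT interferon arrays, against 6.31, 5.41 and 6.76 at baseline, and at 5.27 or lower on every other array. The difference was 1.52 (SE 0.32, adjusted p = 0.0324). It lost its call without NKT interferon array 1, at 1.13 (adjusted p = 0.145), and the peritoneal macrophage interferon array held Tlr8 at 10.55. Aoah, an enzyme that detoxifies bacterial lipopolysaccharide, gave 1.00 (SE 0.22, adjusted p = 0.0396), and 0.91 (adjusted p = 0.145) without that array. Of 16 nucleic acid sensors measured, 12 had a difference above 0 with a median of 0.45. Tlr3 and Tlr8 were called, against 0.137% of all genes. Tlr9, a receptor for unmethylated DNA, was at 1.18 (adjusted p = 0.26). Cgas, the cytosolic DNA sensor, was at 0.95 (adjusted p = 0.071) and Tlr7 at 0.26 (adjusted p = 0.73).

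Mmp13 and Mmp9, a collagenase and a gelatinase that cut extracellular matrix, moved in opposite directions in NKT cells. Mmp13 was at 10.03 and 8.52 on the NKT interferon arrays, against 5.70, 5.47 and 5.66 at baseline. Levels in gamma-delta T cells were 5.76 and 6.74, against 5.78, 5.45 and 5.56, and the conventional arrays lay between 5.26 and 6.20. Only NKT cells separated interferon from baseline arrays by a wide margin. The effect was 3.67 in NKT cells and 0.65 in gamma-delta T cells, against 0.06 in CD4+ and 0.51 in CD8+ T cells (SE 0.28 each), and the difference was 1.88 (SE 0.28, adjusted p = 0.00046). It was 1.5 (adjusted p = 0.00208) without NKT interferon array 1. Both NKT interferon values exceeded the peritoneal macrophage interferon array at 5.98, which does not give the level in spleen macrophages, and the dendritic cell interferon mean of 7.77 (SD 0.02, n = 2).

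Mmp9 was at 7.78 and 8.0 on the NKT interferon arrays, against 10.70, 10.38 and 10.49 at baseline. Gamma-delta T cells had 6.31 and 6.60 after interferon, against 6.77, 6.87 and 6.80 at baseline, and the conventional arrays lay between 5.89 and 6.84. Interferon and baseline arrays did not overlap in either innate-like type, but the gap was wide in NKT cells alone. The NKT effect was -2.64 and the gamma-delta effect -0.36, against -0.21 in CD4+ and 0.33 in CD8+ T cells (SE 0.26 each). The difference was -1.56 (SE 0.26, adjusted p = 0.00352) and -1.5 (adjusted p = 0.0209) without NKT interferon array 1. Neutrophils of the series had Mmp9 at 12.45 on average after interferon and 13.21 at baseline. The 13 neutrophil markers, which include Mmp9, had medians of 6.79 and 6.10 on the NKT interferon arrays and of 5.94, 6.12 and 5.60 on the NKT baseline arrays. Of the 11 metalloproteinase and inhibitor genes measured, Mmp13 and Mmp9 alone were called in the difference, against 0.137% of all genes.

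Trpm6, a magnesium channel fused to a kinase, gave the difference that held in the most settings. It was at 10.01 and 10.12 on the NKT interferon arrays, against 7.59, 7.95 and 8.0 at baseline. In gamma-delta T cells the levels were 7.27 and 6.73, against 6.27, 5.98 and 5.84. In CD4+ T cells the levels were 6.66 and 6.59, against 5.86, 5.87 and 6.05, and CD8+ T cells 5.72 and 5.69, against 5.44, 5.51 and 5.53. Each type separated its interferon from its baseline arrays, and the size of the shift fell in the order NKT, gamma-delta, CD4+, CD8+. The effects were 2.22, 0.97, 0.70 and 0.21 in that order (SE 0.15 each), and the difference was 1.14 (SE 0.15, adjusted p = 0.000108). Only the NKT effect was called, and the CD8+ effect had adjusted p = 0.77. Gamma-delta minus conventional was 0.52 (adjusted p = 0.56) and CD8+ minus CD4+ was -0.48, neither of them called. The order below NKT cells is therefore one of means only. Peritoneal macrophages held Trpm6 at 5.68 on the interferon array and spleen dendritic cells at 5.45 on average after interferon, below every NKT array. The level in spleen macrophages was not analysed here.

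Of the remaining called genes, Cers6, which makes ceramides with mid-length acyl chains, was at 10.30 and 9.75 on the NKT interferon arrays, against 7.69, 8.11 and 8.55 at baseline. The gamma-delta arrays held 10.23 and 9.86, against 8.77, 9.45 and 9.13. The CD4+ arrays held 8.97 and 9.03, against 9.72, 9.50 and 8.87, and CD8+ T cells 8.09 and 8.54, against 8.53, 8.35 and 8.30. Innate-like arrays separated by treatment and conventional arrays overlapped. The effects were 1.90 in NKT and 0.93 in gamma-delta T cells, against -0.36 in CD4+ and -0.08 in CD8+ T cells (SE 0.23 each), and the difference was 1.64 (SE 0.23, adjusted p = 0.000174). Kif1b, a kinesin motor, gave 1.30 (SE 0.24, adjusted p = 0.00803). Cdk6, a cell cycle kinase, gave 1.28 (SE 0.27, adjusted p = 0.0359). Sh3bgrl, a small thioredoxin-like protein, gave 1.13 (SE 0.22, adjusted p = 0.0147). In these 3 genes the innate-like effects were above 0 and the conventional effects at 0.05 or below. Without NKT interferon array 1, Kif1b kept its call, while Cdk6 was at 1.21 (adjusted p = 0.116) and Sh3bgrl at 1.04 (adjusted p = 0.0958). Hic1, a transcriptional repressor, was the other gene lower in innate-like cells, at -1.15 (SE 0.25, adjusted p = 0.0365), with NKT levels of 7.56 and 7.99 after interferon, against 9.77, 9.53 and 9.46 at baseline. It was at -1.04 (adjusted p = 0.145) without NKT interferon array 1. The remaining called gene was a predicted model and is not named.

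Within the innate-like pair, some effects differed between the arrays of the 2 types. NKT minus gamma-delta effects were called for 11 higher (0.0557%) and 3 lower genes (0.0152%), 0.0709% in all. The preparation wording of the interferon arrays also differs between NKT and gamma-delta T cells, so cell type and preparation cannot be told apart here. CD8+ minus CD4+ sets the same 2 wordings against each other and had 0 calls. With 2 interferon arrays per type, 0 calls cannot show that preparation had no part, and its part was not tested. Ifi205 gave 3.39 (SE 0.59, adjusted p = 0.00717), Mmp13 gave 3.02 (SE 0.39, adjusted p = 0.000131) and Mmp9 gave -2.27 (SE 0.37, adjusted p = 0.00473). Phf11d, a PHD finger gene, gave 2.41 (adjusted p = 0.0107). It rose in all 4 types, by 3.61 in NKT cells, against 1.20 in gamma-delta T cells. Fcgr1, the high-affinity receptor for IgG and a macrophage marker, gave 2.14 (adjusted p = 0.0359), and Tfec, a transcription factor of macrophages, gave 2.22 (adjusted p = 0.0122). Hacd4, an enzyme of fatty acid elongation, gave 1.80 (adjusted p = 0.0122). Peritoneal macrophages held these 3 genes at 11.01, 10.19 and 10.78 on the interferon array. Their values without NKT interferon array 1 were 1.23, 1.71 and 0.97, with adjusted p = 0.985, 0.44 and 0.337. Of the 12 genes named for this comparison, Mmp13 at 2.26 (adjusted p = 0.00778) and Klrc3 at 2.11 (adjusted p = 0.0205) were the ones still called without that array, and Mmp13 alone was called without gamma-delta interferon array 2.

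Klrc3 and Klrc2 encode receptors of the NKG2 family. Klrc3 was at 8.06 and 8.16 on the NKT interferon arrays, against 7.01, 7.06 and 7.17 at baseline, and at 5.66 and 4.94 on the gamma-delta interferon arrays, against 6.25, 6.85 and 5.88. It thus rose in NKT cells, by 1.03, and fell in gamma-delta T cells, by 1.02, and the NKT minus gamma-delta value was 2.06 (SE 0.32, adjusted p = 0.00329). Klrc2 gave 2.05 (SE 0.36, adjusted p = 0.00717), with an effect of 0.73 in NKT cells (adjusted p = 0.075) and -1.32 in gamma-delta T cells (adjusted p = 0.0008). The 2 genes are near-identical paralogs and their probe signal may be shared. Of 27 killer receptor and adaptor genes measured, a list that holds Klrc2 but not Klrc3, Klrc2 alone was called in NKT minus gamma-delta, against 0.0709% of all genes. In NKT cells 5 of the 27 rose, against 2.89% of all genes, and 0 fell. In gamma-delta T cells 1 rose and 7 fell, against 0.683% of all genes that fell. The NK cell markers on gamma-delta baseline array 1, at 9.82, stood above those on the other gamma-delta arrays. With NKT interferon array 1 and gamma-delta baseline array 1 both left out, Klrc3 gave 2.14 (adjusted p = 0.0423) and Klrc2 gave 1.87 (adjusted p = 0.173). Clnk, an adaptor of immune receptor signalling, gave 1.25 (adjusted p = 0.0271). Mical2, an enzyme that oxidises actin, gave -1.02 (adjusted p = 0.0112), and Agfg2, an ArfGAP-domain gene, gave -1.0 (adjusted p = 0.0302).

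Most core antiviral genes were raised in all 4 types. Of 25 antiviral effectors measured, 22 were raised in NKT cells, 21 in gamma-delta T cells, 19 in CD4+ T cells and 21 in CD8+ T cells. Over all genes the raised shares were 2.89%, 1.53%, 0.901% and 1% in that order. The difference of the 25 effectors had a median of 0.22, with 16 above 0 and Ifit2 alone called, against 0.137% of all genes. Ifit1, a sensor of foreign RNA caps, came next to Ifit2 at 0.93 (adjusted p = 0.3). Mx1 and Mx2, dynamin-like GTPases that trap viral nucleocapsids, were at 0.23 and -0.06. Rsad2, the gene of viperin, was at 0.21. Ifitm3, which blocks virus entry, leaned the other way at -0.50 (adjusted p = 0.64), with effects of 2.39 in NKT, 4.03 in gamma-delta, 4.35 in CD4+ and 3.08 in CD8+ T cells.

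No gene of the receptor and its signalling was called. Of 23 interferon receptor and signalling genes, 0 were called in the difference, against 0.137% of all genes, and the median was 0.09. Ifnar1 lay between 9.18 and 9.83 and Ifnar2 between 9.53 and 10.54 over all 20 arrays, and their differences were -0.07 and -0.14. Stat2 rose by 2.24 in NKT, 2.36 in gamma-delta, 2.12 in CD4+ and 2.29 in CD8+ T cells, and Irf7, which amplifies interferon production, by 2.22, 2.10, 2.36 and 2.22 in that order. Jak2, a kinase of cytokine receptors, had the highest difference of the list at 0.91 (adjusted p = 0.23). The ISG15 and ubiquitin-like pathway had 11 of 12 genes raised in every type, against 0.901% to 2.89% of all genes by type. Its difference had a median of 0.28 with 0 called, and Herc6, a ligase of that pathway, was at 1.06 (adjusted p = 0.18). For MHC class I presentation the median was 0.06 over 14 genes with 0 called.

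**Figure D4:**
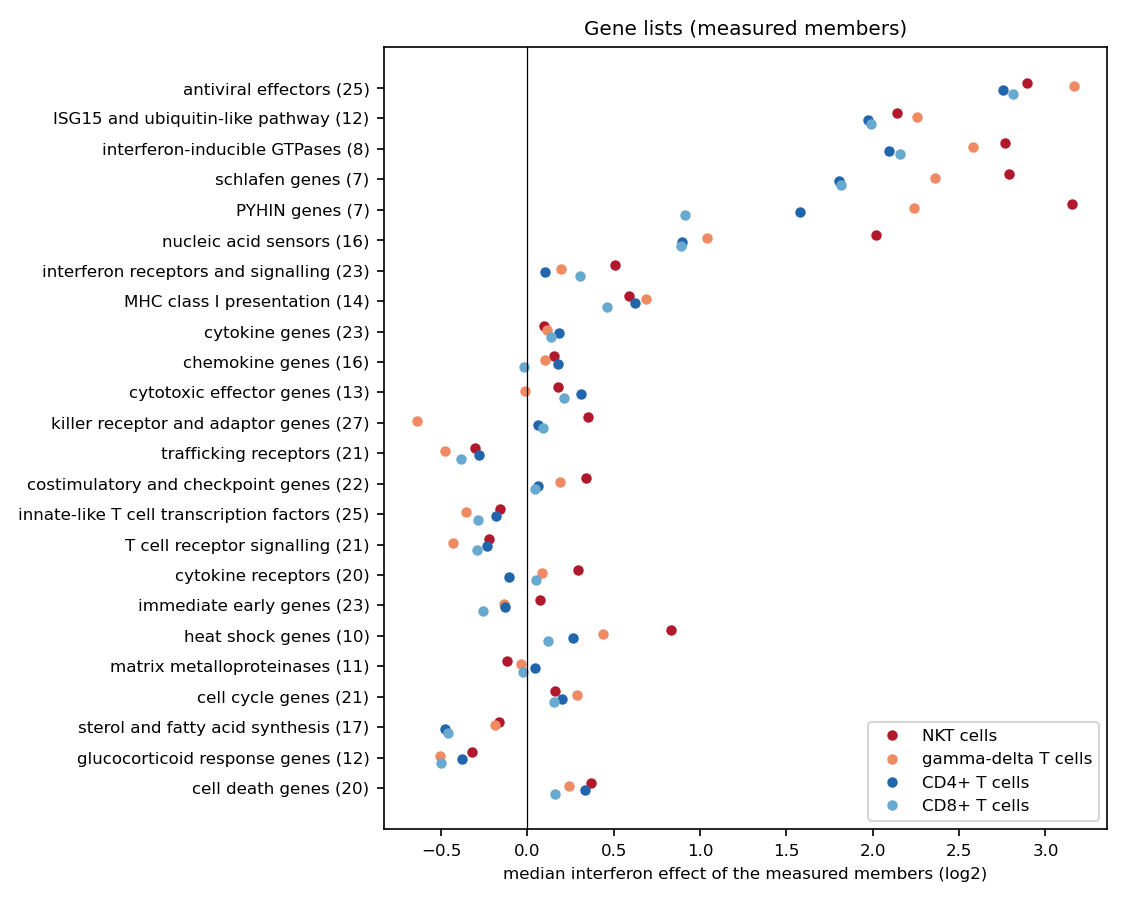
Median interferon effect (log2) of the measured members of 24 gene lists in each cell type, with the number of members in brackets. The 4 cell types lie within a narrow band for antiviral and ISG15 pathway genes and spread more for the schlafen, PYHIN and sensor genes, where NKT cells lie highest.

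Other lists held 0 called genes in the difference, in which 0.137% of all genes were called. All 10 heat shock genes were above 0 with a median of 0.25, led by Hsp90aa1 and Hspd1 at 1.08 each (adjusted p = 0.19 and 0.22). Of 17 genes of sterol and fatty acid synthesis, 11 were above 0 with a median of 0.29. Scd2, a desaturase, fell in all 4 types, by 1.83 in NKT, 1.91 in gamma-delta, 1.27 in CD4+ and 1.33 in CD8+ T cells. The 7 T cell markers were all below 0 with a median of -0.43 and 0 called, among them Cd3d at -0.80 (adjusted p = 0.15). Thy1 fell by 1.01 in NKT and 1.30 in gamma-delta T cells. Among immediate early genes, Myc was at 0.98 (adjusted p = 0.1), with effects of 1.26 in NKT and 0.95 in gamma-delta T cells. Mlkl, the executioner of necroptosis, was at 1.06 (adjusted p = 0.092) and rose in each type, by 3.19 in NKT, 2.55 in gamma-delta, 1.38 in CD4+ and 2.25 in CD8+ T cells.

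The called genes were also read in NK cells and regulatory T cells, 10 arrays whose levels did not enter the difference. This contrast was added after the data had been seen, and it pairs NK cells as the innate type with regulatory T cells as the conventional one. NK minus regulatory T cell effects had the sign of the difference in 20 of the 27 genes, and in 9 of them the unadjusted p was below 0.05. The 10 arrays did enter the pooled spread, which helped to choose the 27 genes. That spread also enters these p-values, which favours the chosen genes. Over all genes, 45.9% of NK minus regulatory T cell values were above 0, and 1.93% were above 0 with an unadjusted p below 0.05. These shares are no like-for-like yardstick. Of the 25 called higher in the difference, 24 were raised by interferon in at least 1 of the 4 types, as were 633 of all 19752 genes. The preparation wording of the interferon arrays differs between NK and regulatory T cells, which cannot be told apart from the cell type here. Macrophage markers moved with this contrast too, with medians of 6.93 to 7.17 on NK interferon arrays and 6.51 to 6.80 on NK baseline arrays, and of 6.27 to 6.39 on regulatory T cell interferon arrays and 6.78 to 7.20 on their baseline arrays. Their median NK minus regulatory T cell effect was 0.94 with 0 called, against 0.46 in the innate-like minus conventional difference, and their part in the result was not tested. Only Cep85l was called among the 27 (over all genes 15 were called higher, 0.0759%, and 12 lower, 0.0608%, together 0.137%), at 2.20 (adjusted p = 0.00783), and Ifi207 (1.80), Il15 (1.51), Ifit2 (1.46) and Sgk3 (1.37) had the next largest values. Trpm6 and Mmp9, whose calls held in the most settings, were at 0.18 and 0.22 in this contrast, so Mmp9 had the opposite sign there, and Ifi205 was at 0.77, none of them called.

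The number of called genes depended on which arrays were used. The settings with marker terms, without the CD8+ arrays of blood source and without NKT interferon array 1 and gamma-delta baseline array 1 together were added after the data had been seen. None of the 26 named genes turned sign in the 33 alternative settings. The genes were chosen for large differences in these same arrays, which most settings reuse, so a kept sign was largely given by that choice. The call count was 33 with a term for the preparation wording of baseline arrays 1 and 2, of which 27 were the same genes. With baseline array 3 as the only baseline it was 3, of which only Trpm6 was shared. With the 20 arrays fitted on their own it was 3, namely Ifi205, Trpm6 and Mmp9. The medians of the macrophage and B cell markers were added as terms to that fit of the 20 arrays. The count with them was 2, Trpm6 at 1.28 (adjusted p = 0.0416) and Mmp9 at -1.59 (adjusted p = 0.00902). Ifi205 was at 2.67 (adjusted p = 0.0725) and Slfn9 at 2.12 (adjusted p = 0.0656). The count of 2 therefore compares with the 3 of the 20 arrays alone and not with 27. With the 2 CD8+ baseline arrays of blood source left out it was 10, all shared. Fewer genes were called when a single array was left out, with 13 without NKT interferon array 1, 15 without gamma-delta interferon array 1, 17 without CD4+ interferon array 1 and 10 without CD8+ interferon array 1. More were called without NKT interferon array 2 (70), NKT baseline array 3 (98), gamma-delta interferon array 2 (44), gamma-delta baseline array 2 (95), CD4+ baseline array 3 (158) or CD8+ interferon array 2 (127). Trpm6 kept its call in all 33 settings, Mmp9 in 32 and Ifi205 in 31, and Mmp13, Tpst1, Cers6 and Tent5a in 30 each.

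**Figure D5:**
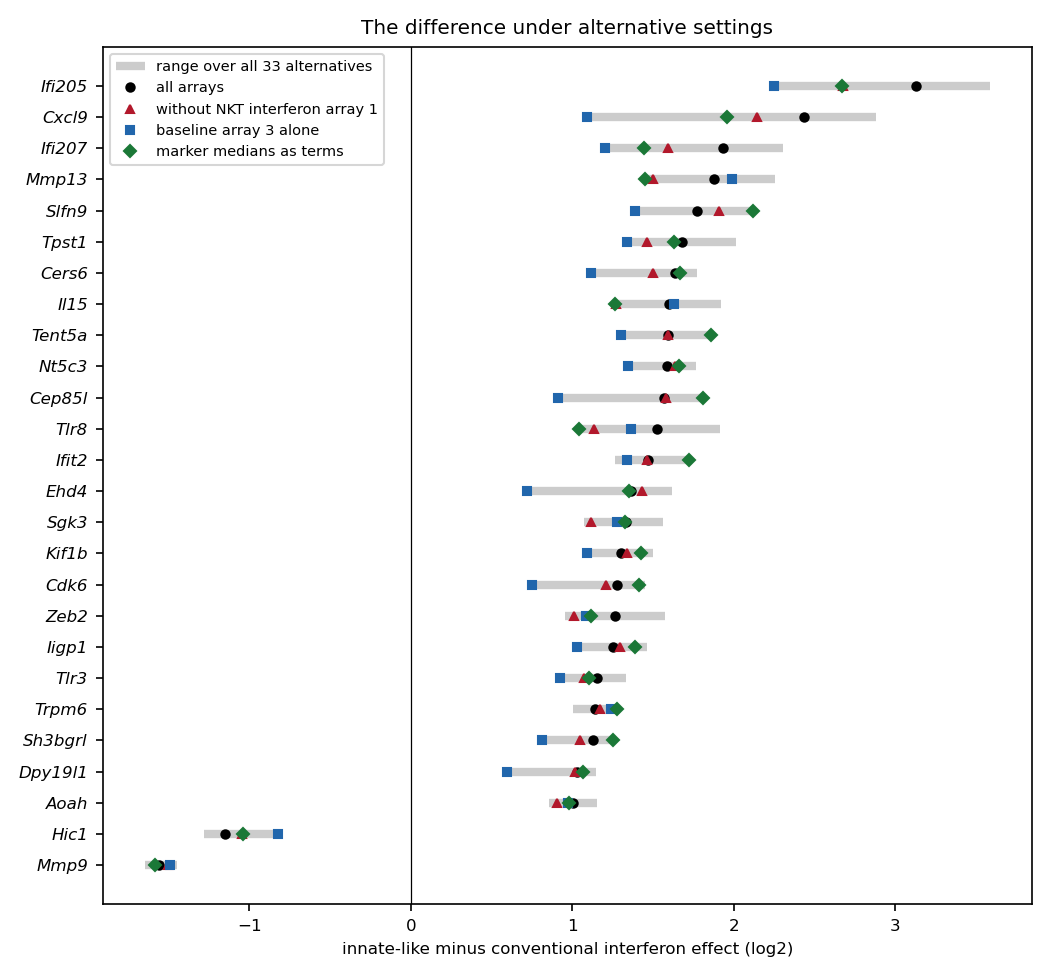
Innate-like minus conventional interferon effect (log2) of the 26 named genes with all arrays, without NKT interferon array 1, with baseline array 3 alone and with marker medians as terms. The marker terms were fitted to the 20 arrays alone. Grey bars span all 33 alternatives, and every bar stays on its own side of 0.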

How the data were processed

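RNA of sorted cells was hybridised to Affymetrix whole-transcript arrays. The deposited values are linear intensity values that the authors made with Affymetrix Power Tools and RMA, per the submitters' processing notes. Tool versions and the genome build were not given in the sources used here. Here log2 was taken with no further scaling. Of 24922 probe sets, 21425 carried 1 gene symbol, 1399 several and 2098 none, and the brightest probe set stood for each of 19752 genes. limma 3.58.1 in R 4.3.3 was fitted to all 43 arrays in 18 groups (25 residual degrees of freedom). Tests were two-sided with Benjamini-Hochberg adjustment over all genes, and a call needed adjusted p below 0.05 and at least 1 on the log2 scale. The fit was tested on simulated data. Named were up to 25 higher and 15 lower called genes of the difference and 10 in each direction of NKT minus gamma-delta, without predicted models, and members of gene lists. Genes and lists were chosen with earlier results of these data known. The alternatives changed normalisation, filter, probe set rule, weights, baseline arrays, the replicate block and single arrays.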

Additional observations from a re-analysis of the deposited data

Results flagged for a closer look

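Each value here passed a test of the difference between the effects of 2 cell type groups. For innate-like minus conventional effects (log2), Ifi205 was at 3.13, Cxcl9 at 2.43, Ifi207 at 1.93, Mmp13 at 1.88, Slfn9 at 1.77, Tpst1 at 1.68 and Cers6 at 1.64. Il15 was at 1.60, Tent5a at 1.59, Nt5c3 at 1.59, Cep85l at 1.57, Tlr8 at 1.52, Ifit2 at 1.47 and Ehd4 at 1.36. Sgk3 was at 1.33, Kif1b at 1.30, Cdk6 at 1.28, Zeb2 at 1.26, Iigp1 at 1.25, Tlr3 at 1.15 and Trpm6 at 1.14. Sh3bgrl was at 1.13, Dpy19l1 at 1.03 and Aoah at 1.00, while Mmp9 was at -1.56 and Hic1 at -1.15.

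For NKT minus gamma-delta effects, Ifi205 was at 3.39, Mmp13 at 3.02, Phf11d at 2.41, Tfec at 2.22, Fcgr1 at 2.14, Klrc3 at 2.06 and Klrc2 at 2.05. Hacd4 was at 1.80, Clnk at 1.25, Mmp9 at -2.27, Mical2 at -1.02 and Agfg2 at -1.0. Groups of 2 and 3 arrays are too small for a search for outlying arrays.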

How the results depend on the processing

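No named gene changed sign in 1137 combinations of gene and setting, 817 kept the call and 320 lost it. A kept sign was likely beforehand, because the genes were chosen on these same arrays. The counts of calls moved far more, and the cause was not tested. Settings with marker terms were fitted to the 20 arrays alone, so their counts compare with those of the 20 arrays alone. The innate-like minus conventional test called 25 higher and 2 lower genes. Higher genes numbered 1 with baseline array 3 alone, 2 with the 20 arrays alone, 64 after quantile normalisation, 137 with array weights, 9 without CD8+ baseline arrays 1 and 2, 1 with marker medians as terms and 9 without NKT interferon array 1 and gamma-delta baseline array 1. Lower genes numbered 4 with the preparation term, 4 with the replicate block, 1 with the 20 arrays alone, 6 after quantile normalisation, 19 with array weights, 9 with no minimum difference, 1 without the CD8+ arrays and 1 with marker terms. Leaving out 1 array gave 9 to 148 higher and 1 to 28 lower. Arrays of the same number did not all deviate together (correlations from -0.52 to 0.437, with at most 3 of 6 pairs above 0.1, for baseline arrays numbered 2), so the numbers were not taken to pair samples, and the block called 36 genes in all, including the 27.

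NKT minus conventional gave 88 higher and 12 lower genes. These were 4 and 3 with baseline array 3 alone, 19 and 6 with the 20 arrays alone, 33 and 5 without the CD8+ arrays, 4 and 1 with marker terms and 7 and 2 without the NKT and gamma-delta arrays named above. Lower genes were 19 after quantile normalisation. Leaving out 1 array gave 8 to 415 higher and 2 to 32 lower. Gamma-delta minus conventional, with 0 and 0 by limma, gave 1 and 2 with baseline array 3 alone, 12 and 13 after quantile normalisation and 3 lower without the NKT and gamma-delta arrays, and 0 to 4 higher and 0 to 10 lower on leaving out 1 array. NKT minus gamma-delta, with 11 and 3, gave 0 and 0 with baseline array 3 alone, 1 and 1 with the 20 arrays alone, 1 and 1 with marker terms and 3 and 0 without the NKT and gamma-delta arrays, and 19 higher after quantile normalisation. Leaving out 1 array gave 1 to 88 higher and 0 to 7 lower. CD8+ minus CD4+ stayed at 0 by limma on leaving out each array. With baseline array 3 alone the NKT effect had 361 called genes, against 646, and the CD8+ effect 158, against 261. Leaving out 1 array gave 471 to 949 in NKT, 348 to 611 in gamma-delta, 133 to 297 in CD4+ and 217 to 265 in CD8+ T cells. With 2 interferon arrays per type, leaving out 1 assumes that the other varies like the remaining groups. Genes near background are limited by signal, and 11114 genes passed the filter on dim genes, which gave 30 calls.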
